A study of Rattus norvegicus with 4 samples.

Results

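Rab GTPases are the largest family of small GTP-binding proteins of vesicle traffic, and their genes were followed here in a rat oral epithelial cell line as it left proliferative culture conditions. A gene belonged to the set when its annotated symbol was Rab followed by a number and optional letters, with symbols containing fip or gap left out. The rule found 58 genes among the 14218 genes on the array, and 56 of them encode Rab GTPases. Rab3ip and Rab5if match the rule but encode no GTPase. Rab3ip encodes Rabin8, an exchange factor that activates Rab8, and Rab5if encodes a Rab5-interacting membrane protein. Rab3ip is therefore also counted among the exchange factor genes below. Where a gene had several probe sets, the one that was brightest on average stands for it.

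The cells were ROE2, an immortalized line derived from the tongue of a fetus, aged 18 days, of a transgenic Wistar rat. The transgene encodes the temperature-sensitive large T antigen of SV40, which keeps cells dividing at the lower temperature and is inactive at the higher one. They were kept in medium with 2% fetal bovine serum, an insulin, transferrin, ethanolamine and selenite supplement and epidermal growth factor at 10 ng/ml, on collagen I, first for 24 h at 33 °C and then at 37 °C. RNA was taken on days 0, 3, 6 and 9 of the warmer phase, and day 0 is the starting point against which the later days are set. All 4 groups share the line, the transgene and the medium, and a single immortalized line stands for the tissue. Against day 0, the temperature and time in culture cannot be told apart, whereas days 3, 6 and 9 share 37 °C. The T antigen transcript itself was not analysed here. Each day was measured on 1 Affymetrix 3' expression array, so a day and its array cannot be told apart, and no difference below has a replicate check or a p-value. In bulk RNA, fewer cells that express a gene and less RNA per cell cannot be told apart either.

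Rab proteins are molecular switches. Exchange factors load them with GTP on a given membrane, where they recruit effectors that move, tether or fuse vesicles, and GTPase-activating proteins switch them off. A prenyl anchor holds them in the membrane, and GDI proteins carry the inactive form through the cytosol. In stratified epithelium this traffic delivers junction proteins and receptors to the surface, takes them up again, and feeds the lysosome-related granules that release lipids and enzymes in the upper layers.

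Values are log2 probe set values, and a difference of 1 or more between a day and an earlier one, which is 2-fold, counted as higher or lower. Counts are over the genes that reached 6 on at least 1 array, the floor used here, which 8802 of all genes and 46 of the 58 Rab symbols did. Of those 46, 43 were at 6 or more on all 4 arrays. Rab32 reached the floor on day 0 alone, Rab27a on days 0 and 3, and Rab40b on days 3, 6 and 9. Signal over background was judged from 27 bacterial control probe sets, of which the brightest read 4.19 on day 0 and 4.56 on day 9. Probe set brightness is not comparable between genes, so only differences are set side by side across genes.

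The marker genes of stratified epithelium bore out the labelled cell type, with 9 of 10 at 6 or more on every array. The exception was the keratin gene Krt4, at 4.16, 4.19, 4.38 and 4.93 on days 0, 3, 6 and 9. Krt13, a keratin of the suprabasal oral layers, read 9.68, 12.23, 13.55 and 13.91. Its day 9 difference of 4.24 was the largest of the 9. On that day 6 of the 9 were above day 0 and 3 below it, the lowest at -0.31. Of the marker genes of fibroblasts (8), melanocytes (7), endothelium (5) and muscle (6), 0 reached 6 on any array. Of the 7 genes of the neuron list Snap25, Tubb3 and Syp did, and of the 7 of the leukocyte list Cd14 and Cd68. Against day 0, Snap25 was 2.41 higher and Cd68 1.22 higher on day 3, Tubb3 was 1.21 higher on day 9, and Cd14 was at -1.86 on day 9. Syp differed by at most 0.18, and the leukocyte antigen gene Ptprc stayed between 2.79 and 2.93. The part of such cells in the Rab values was not tested. The median gene lay at -0.05, -0.18 and -0.14 on days 3, 6 and 9 against day 0. Hybridization spike-ins, added in a fixed amount to each array, were higher by 0.14, 0.39 and 0.63 in the median of 18 probe sets on the same days. Centring on them would put the median gene at -0.19, -0.57 and -0.77. They serve the hybridization step, and their values had passed through the same normalization, so they do not measure RNA per cell.

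Rab genes that differed from day 0 by 2-fold or more did so in both directions. On day 9, 5 of the 46 Rab genes were 2-fold or more higher than on day 0 and 4 were lower. Over all 8802 genes 5.57% were higher and 6.25% lower, 11.8% in all, beside 19.6% of the Rab genes. The corresponding counts were 4 higher and 4 lower on day 6, against 5.74% and 8.08% (13.8% in all) of all genes, and 1 higher and 2 lower on day 3, against 4.31% and 2.15% (6.45% in all) of all genes. Taking any later day, 11 of the 46 (23.9%) were 2-fold or more apart from day 0, against 18.0% of all genes. On days 6 and 9 alike, 28 of the 46 (60.9%) were within 1.5-fold of day 0, beside 65.1% and 68.3% of all genes.

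The 11 genes were Rab8b, Rab3d, Rab14, Rab24, Rab27b, Rab38 and Rab40b on the higher side and Rab20, Rab30, Rab31 and Rab32 on the lower side. The Rab median was -0.03, 0.17 and 0.21 on days 3, 6 and 9, beside -0.05, -0.18 and -0.14 for all genes. On day 9, 65.2% of the Rab genes and 39.0% of all genes lay above their day 0 value, and on day 3 the shares were 45.7% and 44.2%. Centring on the spike-ins turned the sign of the Rab median, to -0.22 on day 6 and -0.43 on day 9. The counts then were 1 higher and 6 lower on day 6 and 0 higher and 9 lower on day 9, while centring on the median gene or on a housekeeping list gave 8 higher and 2 lower on day 6. Which side holds more genes thus depends on the scaling.

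**Figure D1:**
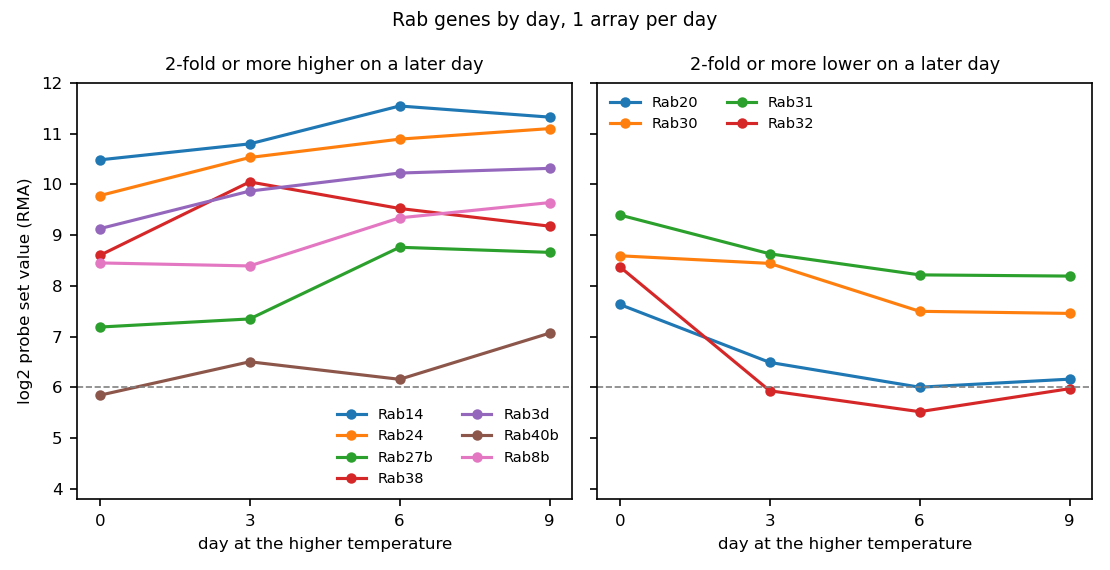
Log2 probe set value (vertical axis) on days 0, 3, 6 and 9 (horizontal axis) for the 11 Rab genes that were 2-fold or more apart from day 0 on a later day, with those higher on the left and those lower on the right. Each point is 1 array, the dashed line is the floor of 6, and heights are not comparable between genes. Rab32 and Rab20 have their largest drop by day 3, Rab27b and Rab30 move between days 3 and 6, and Rab38 peaks on day 3.

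Rab32, Rab38, Rab20, Rab31, Rab24 and Rab3d took their largest step between days 0 and 3. For Rab27b, Rab8b, Rab14 and Rab30 the largest step was between days 3 and 6, and for Rab40b between days 6 and 9. From day 3 to day 6, Rab27b was the only Rab gene of the 46 that was 2-fold or more higher and 0 were lower, against 0.829% and 1.60% (2.43% in all) of all genes. Between days 6 and 9 no Rab gene differed by 2-fold, against 0.250% higher and 0.591% lower (0.841% in all) of all genes. Over the 3 later days, 19 of the 46 were above their day 0 value each time (41.3%, against 26.2% of all genes) and 14 were below it each time (30.4%, against 44.3%).

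The Rabs of regulated secretion and lysosome-related organelles held the widest spread of the Rab groups, but only through Rab32. Of the 10 on the array 6 passed the floor, and on day 9 2 of these were higher (Rab27b and Rab3d) and 1 was lower (Rab32). That is 50% of only 6 genes, beside 11.8% of all genes. The day 9 differences of these 6 Rabs ran from -2.40 to 1.47 with a median of 0.12. The low end is Rab32 alone, which has 1 probe set and reached the floor only on day 0, where it was high. The next lowest was Rab27a, at -0.55. In the early and recycling endosome group the differences ran from -1.47 to 0.84.

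Rab32 and Rab38, close relatives that both deliver cargo to melanosomes and other lysosome-related organelles, differed from day 0 in opposite directions. Rab32 had values of 8.38, 5.94, 5.52 and 5.98 on days 0, 3, 6 and 9. It was high on day 0 and low on all 3 later arrays, 5.44-fold lower on day 3, 7.24-fold on day 6 and 5.29-fold on day 9, the largest difference of any Rab gene above the floor on each day. Rab38 read 8.60, 10.05, 9.53 and 9.18. It was thus highest on day 3, 2.73-fold above day 0, and nearer to its starting level on day 9, at 0.58. Centred on the spike-ins, the day 9 value of Rab38 was -0.06. Both genes were measured by 1 probe set each.

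Both also depend on partners whose genes were measured. Hps1, a subunit of the BLOC-3 exchange factor for both GTPases, was at -0.60 on day 9 against day 0, and Hps4, the other subunit, was below the floor. Ankrd27, which encodes the Rab32 and Rab38 effector VARP, was at -0.35 on day 9. None of these passed 2-fold on any day. The 7 melanocyte marker genes were at or below 5.61 on all 4 arrays. Of these, 3 (Mitf, Pmel and Sox10) were above the brightest bacterial control on each array. Mitf read 5.07, 5.06, 5.55 and 5.61, not far from the later Rab32 values. The tyrosinase gene Tyr was the dimmest, between 3.25 and 3.79.

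Rab27b, which docks secretory granules and exosome-releasing compartments at the plasma membrane, had values of 7.19, 7.35, 8.76 and 8.66 on days 0, 3, 6 and 9. The first 2 arrays were alike and the last 2 were higher, by 2.97-fold on day 6 and 2.77-fold on day 9. A further probe set of the gene gave 6.94, 7.11, 8.08 and 7.98, the same course with a day 9 difference of 1.04. Its paralog Rab27a, known for melanosome and lytic granule transport, read 6.09, 6.06, 5.32 and 5.55 and so lay lower on the later arrays, by less than 2-fold.

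The effectors of Rab27 did not move as one. Sytl2, which encodes a synaptotagmin-like granule tether, read 6.53, 6.23, 4.79 and 5.20, and was lower by 1.74 and 1.33 on the log2 scale on days 6 and 9. Exph5, which encodes the epidermal Rab27 effector Slac2-b, was 0.93 higher on day 9, just short of 2-fold. Sytl1 was at 0.41 and the granule priming gene Unc13d at 0.29, while Sytl3, Sytl4, Mlph and Myrip were below the floor.

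Rab3d, a Rab of exocrine secretory granules, had values of 9.13, 9.87, 10.23 and 10.32. Each later array was above day 0, by 2.14-fold on day 6 and 2.28-fold on day 9. Rab3a, its neuronal relative, read 6.97, 6.72, 6.64 and 6.65 and stayed within 1.5-fold. Of their effector genes, Rims1 and Rims2 were below the floor and Rph3al was at 0.21 on day 9.

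**Figure D2:**
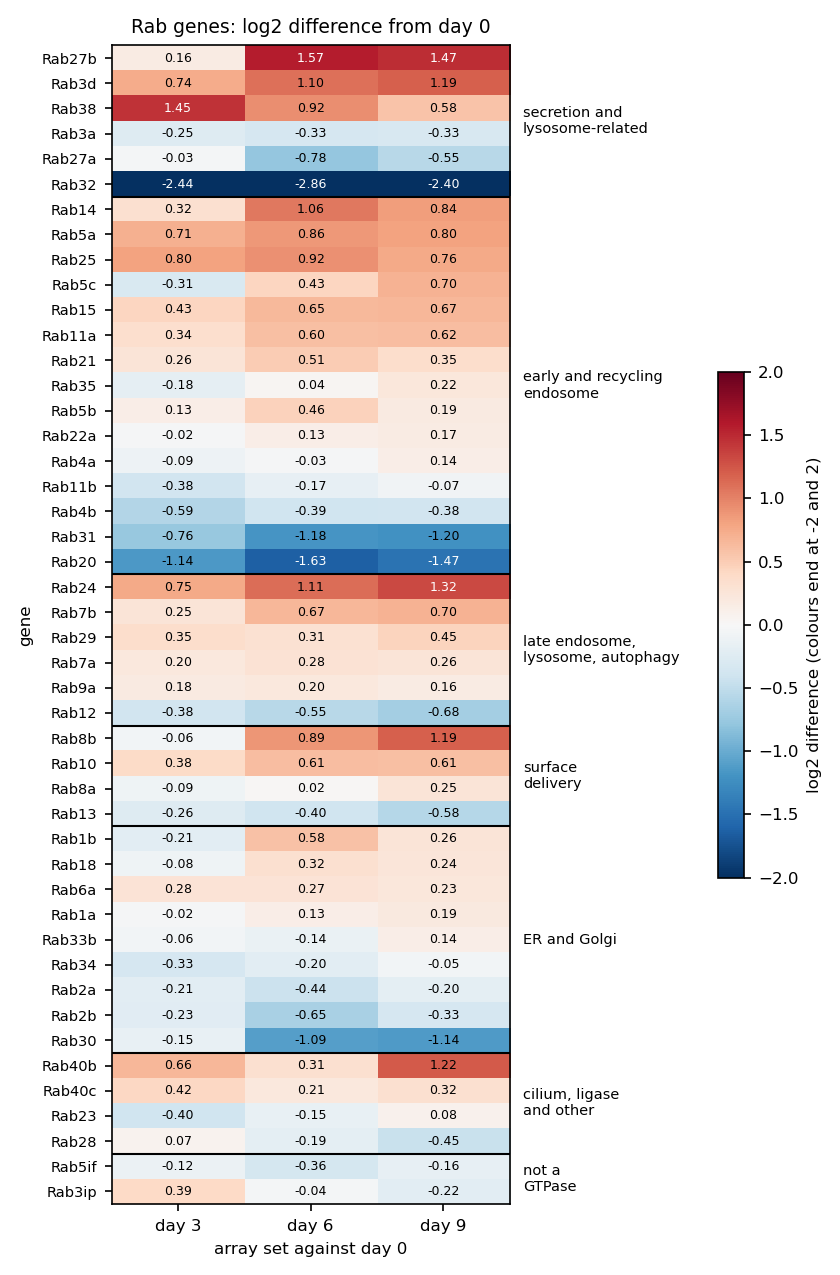
Log2 difference from day 0 (colour and printed number) on days 3, 6 and 9 (columns) for the 46 Rab symbols above the floor (rows), grouped by the membrane each is best known for and ordered within a group by day 9. Rab32 is the darkest row on all 3 days, at -2.44, -2.86 and -2.40, and Rab30 is the darkest row of the endoplasmic reticulum and Golgi block on days 6 and 9.

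Shown are the promoters of the 3 Rab GTPases furthest from day 0 on day 9: Rab32 and Rab20, low from day 3, and Rab27b, high from day 6. Each runs from 250 bases before the RefSeq gene start to 30 bases from it on, 280 bases in build GRCr8, read on the gene's strand. These are the windows chr1:6781229-6781508 on the minus strand for Rab32, chr18:65938554-65938833 on the minus strand for Rab27b and chr16:84721177-84721456 on the plus strand for Rab20. Capitals mark matches, on either strand, to 4 motifs: TGANTCA (the AP-1 site), CACGTG (the E-box of basic helix-loop-helix factors), CCAAT (the CCAAT box) and GGGCGG (the GC box).
Rab32: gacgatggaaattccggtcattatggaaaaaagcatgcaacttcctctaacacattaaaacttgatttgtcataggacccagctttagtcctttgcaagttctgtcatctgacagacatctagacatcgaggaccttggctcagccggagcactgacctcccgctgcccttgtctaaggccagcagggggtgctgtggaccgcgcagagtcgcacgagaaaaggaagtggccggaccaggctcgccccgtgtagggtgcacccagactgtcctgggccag
Rab27b: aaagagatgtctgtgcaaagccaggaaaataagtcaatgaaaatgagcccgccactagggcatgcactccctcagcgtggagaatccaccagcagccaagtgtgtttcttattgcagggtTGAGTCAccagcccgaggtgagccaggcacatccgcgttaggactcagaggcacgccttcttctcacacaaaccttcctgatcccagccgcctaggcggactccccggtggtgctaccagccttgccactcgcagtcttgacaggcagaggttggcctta
Rab20: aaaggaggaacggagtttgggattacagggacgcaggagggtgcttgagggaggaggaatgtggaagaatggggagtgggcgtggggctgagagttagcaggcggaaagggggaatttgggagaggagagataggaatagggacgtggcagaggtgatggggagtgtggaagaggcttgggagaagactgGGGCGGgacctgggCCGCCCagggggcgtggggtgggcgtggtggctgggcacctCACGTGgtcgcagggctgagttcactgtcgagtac

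The Rab27b window held TGANTCA once, 130 bases before the start, a motif found in 7.0% of all 33469 promoter windows. Rab20 held GGGCGG 60 and 46 bases before the start and CACGTG across it, beginning 5 bases before. In the Rab32 window no match to these letters was found. Of the 58 Rab symbols 47 had a promoter in the table, and 4 of those held TGANTCA (Rab4b, Rab9a, Rab27b and Rab34), 4 held CACGTG (Rab5a, Rab20, Rab21 and Rab31), 17 held CCAAT and 36 held GGGCGG. As shares of the Rab windows these are 8.51%, 8.51%, 36.2% and 76.6%. Over all windows CACGTG was found in 6.18%, CCAAT in 36.2% and GGGCGG in 32.2%. Among the 7424 windows of genes above the floor, TGANTCA was found in 4.78%, CACGTG in 10.0%, CCAAT in 37.5% and GGGCGG in 64.5%. The motifs do not overlap one another in these 3 windows. A match is a string of letters, not a site shown to be used.

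The 15 early and recycling endosome Rabs above the floor, of 16 on the array, had a median of 0.22 on day 9, but the 2 that were 2-fold apart on that day, Rab20 and Rab31, were lower. On day 6 the same pair was lower and Rab14 was higher. The shares were 20% on day 6 and 13.3% on day 9, beside 13.8% and 11.8% of all genes.

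Rab20, a Rab of phagosome maturation, read 7.64, 6.49, 6.00 and 6.16 on days 0, 3, 6 and 9. Day 0 stood above the 3 later arrays, which made the gene 2.21-fold lower on day 3, 3.10-fold on day 6 and 2.77-fold on day 9. The size rests on this probe set: another gave 6.19, 5.87, 5.83 and 5.90, a day 9 difference of -0.29, and a dim one at 5.12 to 5.34 was 0.22 higher on day 9.

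Rab31, which works between the trans-Golgi network and endosomes, had values of 9.40, 8.63, 8.22 and 8.19. The later arrays were again lower, by 2.27-fold on day 6 and 2.30-fold on day 9. A dimmer probe set of Rab31, below the floor on all 4 arrays, was at -0.15 on day 9. Its close relative Rab22a, an early endosome Rab, read 9.91, 9.89, 10.05 and 10.08 and differed by 0.17 on day 9. Rab14, which links the Golgi and endosomes, read 10.49, 10.80, 11.55 and 11.33, highest on day 6 at 2.09-fold above day 0, though its other 3 probe sets above the floor were between 0.02 and 1.07 higher on that day.

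Rab5a, the master Rab of early endosome fusion, read 11.10, 11.81, 11.97 and 11.90. All 3 later arrays were higher, by 0.71, 0.86 and 0.80, short of 2-fold. Its second probe set, at 8.51, 9.31, 10.09 and 9.66, passed 2-fold on days 6 and 9, at 1.58 and 1.15. The paralog Rab5c was lower on day 3, at -0.31, and 0.70 higher on day 9, and Rab5b was 0.19 higher on day 9.

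Among the recycling Rabs, Rab25, the Rab11 relative found mainly in epithelial cells, had values of 10.01, 10.81, 10.93 and 10.77, higher on every later array by 0.80, 0.92 and 0.76. Rab11a, the general recycling endosome Rab, read 12.18, 12.52, 12.78 and 12.80 and ended 0.62 higher, while Rab11b lay at -0.07. The Rab11 effector gene Rab11fip1, which encodes the Rab-coupling protein, was 1.03 higher on day 6 and 0.71 on day 9. Rab11fip2, Rab11fip3 and Rab11fip5 were at 0.33, 0.29 and -0.01 on day 6 and at 0.25, 0.01 and 0.48 on day 9. Myo5b, the motor that binds Rab11, was 0.91 higher on day 9.

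Rab15, which slows recycling through the early endosome, was 0.67 higher on day 9 in the chosen probe set. Its other probe sets gave larger differences, 0.93 and 2.08, the last with values of 5.58, 6.20, 7.17 and 7.66. The remaining members of the group, Rab4a, Rab4b, Rab21 and Rab35, were between -0.38 and 0.35 on day 9.

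In the late endosome, lysosome and autophagy group 6 of 8 genes passed the floor, and 1 was higher and 0 lower on days 6 and 9. That is 16.7% on each of these days, beside 13.8% and 11.8% of all genes. The group median was 0.23, 0.29 and 0.36 on days 3, 6 and 9. Rab24, a Rab of autophagosome clearance, read 9.78, 10.53, 10.89 and 11.10 on days 0, 3, 6 and 9. Each array was higher than the one before it, and day 9 was 2.50-fold above day 0. Rab24 was measured by 1 probe set whose identifier is marked as matching several transcripts of a gene.

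Rab7a, which drives fusion with lysosomes, differed by 0.26 on day 9. Rab7b, which sends cargo from late endosomes back to the Golgi, was 0.70 higher, and 1.38 in a second probe set at 7.35, 7.85, 8.64 and 8.74. Mon1b, part of the exchange factor for Rab7, read 7.43, 7.90, 7.94 and 8.43 and was just 2-fold higher on day 9, at 1.00. Also among the exchange factor genes, Mon1a was at 0.52 and Ccz1 at -0.43 on day 9. Rab12 was the 1 member of the group below its day 0 value on all later days, at -0.38, -0.55 and -0.68, but a second probe set was at 0.02 on day 9.

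The 4 surface delivery and junction Rabs all passed the floor. Rab8b, which carries vesicles to the plasma membrane, had values of 8.45, 8.39, 9.34 and 9.64. Days 0 and 3 were alike and days 6 and 9 higher, at 1.85-fold and 2.28-fold above day 0. Other probe sets of Rab8b were 0.75 and 0.11 higher on day 9. Rab8a differed by 0.25, and Rab10, a Rab of basolateral and glucose transporter delivery, by 0.61 in the chosen probe set and 1.18 in another.

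Rab13, the tight junction Rab, read 8.15, 7.89, 7.75 and 7.58, lower on each later array, with a day 9 difference of -0.58. Micall2, which encodes its junctional effector, read 8.76, 8.57, 7.59 and 7.45. The gene was 1.31 lower on the log2 scale on day 9. Optn, which encodes the Rab8 effector optineurin, was at -0.92.

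Of the 14 Rabs of the endoplasmic reticulum and Golgi on the array 9 passed the floor, and 1 of these, Rab30, was 2-fold apart on day 9 (11.1%, beside 11.8% of all genes). The other 8 were between -0.33 and 0.26 on day 9. Rab1a, which brings vesicles out of the endoplasmic reticulum, read 12.84, 12.81, 12.97 and 13.03, a difference of 0.19 on day 9. The 3 probe sets that the annotation gives to both Rab1a and Rab1b were left out of the counts. The brightest of them read 7.39, 7.18, 8.32 and 7.92 and was highest on day 6, as was Rab1b itself, at 0.58.

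Rab30, a Golgi Rab, had values of 8.59, 8.44, 7.50 and 7.46 on days 0, 3, 6 and 9. It split the arrays into the first 2 and the last 2, with day 6 2.13-fold and day 9 2.20-fold lower than day 0. A second probe set was also lower, by 0.95 on day 6 and 0.52 on day 9 on the log2 scale. Centred on the median gene, the day 6 value of Rab30 was -0.91, and its day 9 value also fell just short of 2-fold.

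Of the other GTPases, Rab40b, which recruits a cullin ubiquitin ligase through its SOCS box, read 5.85, 6.51, 6.16 and 7.07. Day 9 was the highest array, 2.33-fold above day 0, and the values were low enough that the dimmer second probe set of the gene, 3.64 to 4.48, was below the floor. Its relative Rab40c was 0.32 higher. Rab23, which restrains hedgehog signalling in the cilium, and Rab28 were at 0.08 and -0.45. The symbols that name no GTPase, Rab3ip and Rab5if, were at -0.22 and -0.16.

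The 12 Rab symbols below the floor had values between 2.02 and 5.84. Rab3c, Rab26, Rab36, Rab37 and Rab39a were not above the brightest bacterial control on any array, Rab3b, Rab17, Rab19 and Rab33a were above it on all 4, and Rab6b, Rab9b and Rab43 on some. Rab9b was the 1 gene of the 12 that parted by 2-fold or more, with 3.09, 5.29, 3.95 and 3.96 on days 0, 3, 6 and 9. It stood above the control on day 3 alone, at least 2.14-fold higher than on day 0 when set against the brightest control of that array.

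Among the 12 families or close pairs with at least 2 members above the floor, listed after their values had been seen, there were 6 in which the members lay on opposite sides of day 0 on day 9. This count takes signs of any size, such as Rab11b at -0.07 and Rab4a at 0.14. Of all genes, 39.0% lay above day 0 on day 9, so unrelated genes would often fall on opposite sides too. No share over other pairs of genes was computed, for the signs or for the gaps below, so neither count sets Rab families apart. It also depends on the scaling: centred on the spike-ins, Rab38 lay below day 0 on day 9, as Rab32 did. The gap between the highest and lowest day 9 difference was 1 or more in 4: 2.98 for Rab32 and Rab38, 2.02 for Rab27a and Rab27b, 1.51 for Rab3a and Rab3d, and 1.37 for Rab22a and Rab31. It was smallest for Rab1a and Rab1b, at 0.07, and for Rab2a and Rab2b, at 0.13.

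Probe sets of the same gene bear on how firmly these sizes can be read. For 22 Rab genes 29 further probe sets passed the floor, and 24 of them had the same sign as the chosen one on day 9, with a median gap of 0.40. Of 5 that belonged to genes 2-fold apart on day 9, all 5 had the same sign and 1 was also 2-fold apart. In turn 5 passed 2-fold where the chosen probe set did not, those of Rab5a, Rab7b, Rab10, Rab11a and Rab15. In all 5 it was dimmer than the chosen one, by the rule of choice.

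**Figure D3:**
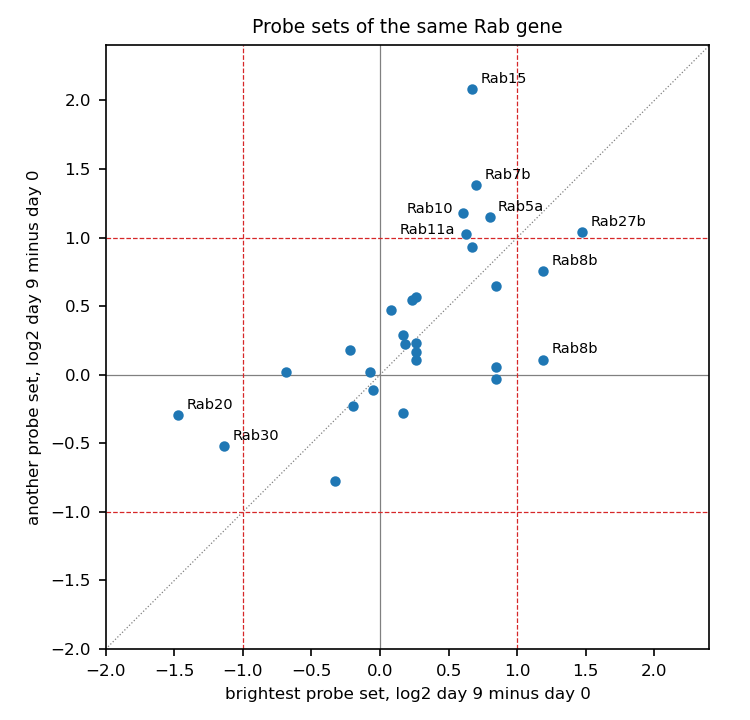
Day 9 minus day 0 on the log2 scale in the brightest probe set of a Rab gene (horizontal axis) against each of its other probe sets above the floor (vertical axis), 29 points from 22 genes. Red dashed lines are 2-fold, the dotted line is equality, and named points pass 2-fold on either axis. Rab15, Rab7b, Rab10, Rab5a and Rab11a pass on the vertical axis alone, and Rab27b passes on both.

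The genes that run the Rab cycle held shares near that of all genes or below it. Among the prenylation, escort and GDI genes 4 of 5 passed the floor. Of these, 0 were 2-fold apart from day 0 on any later day, beside 18.0% of all genes, which says little for 4 genes. Their day 9 values lay between -0.24 and 0.05, among them Gdi2, which extracts inactive Rabs from membranes, at -0.09. Of 31 exchange factor genes above the floor 1 was higher and 2 lower on day 9, namely Mon1b, and Dennd2b and Dennd5a, at -1.80 and -1.05. That is 9.68%, beside 11.8% of all genes. Of 25 genes of GTPase-activating proteins 1 was higher and 1 lower on day 9, which is 8%. These were Usp6nl, which encodes an inactivator of Rab5, 1.38 higher, and Tbc1d1, which acts on the Rabs of glucose transporter vesicles, at -1.51.

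Rab effector genes numbered 42 above the floor, with 2 higher and 3 lower on day 9 and a median of 0.10, a share of 11.9% beside 11.8% of all genes. Osbpl1a, which encodes a Rab7-binding cholesterol sensor, was 1.41 higher and Rufy1, an effector gene of Rab4 and Rab14, 1.17. Sytl2, Micall2 and the Golgi golgin gene Gcc2, at -1.06, were lower. Rabep1 and Rabep2, which encode the Rab5 effectors rabaptin-5 and rabaptin-5 beta, were at -1.04 and -1.21 on day 6 and both at -0.60 on day 9.

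Of 39 SNARE and partner genes 1 was higher on day 9, Stx12, an endosomal syntaxin gene, at 1.02, and 0 were lower. That is 2.56%, beside 11.8% of all genes. On day 3 Snap25 and Vamp4 were higher, at 2.41 and 1.16, and Vamp5 was lower, at -1.12, together 7.69% beside 6.45% of all genes. On day 6 Vamp5 was lower again, at -1.40, and was the only 1 of the 39 that was 2-fold apart (2.56%, beside 13.8% of all genes). In the exocyst (6 genes) and the coat and retromer list (23 genes) 0 were 2-fold apart from day 0 on any later day, beside 18.0% of all genes. For as few as 6 genes a count of 0 says little. Among other small GTPases, 0 of 15 Arf, Arl and Sar genes were 2-fold apart from day 0 on any later day, beside the same 18.0%. In the Ras list 1 of 15 was higher (Rasl12) and 2 were lower (Rhebl1 and Rras2) on day 9. That is 20%, beside 19.6% of the Rab genes and 11.8% of all genes. With 1 array per day these counts describe the arrays, and no difference between the Rab genes and the other lists was tested.

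**Figure D4:**
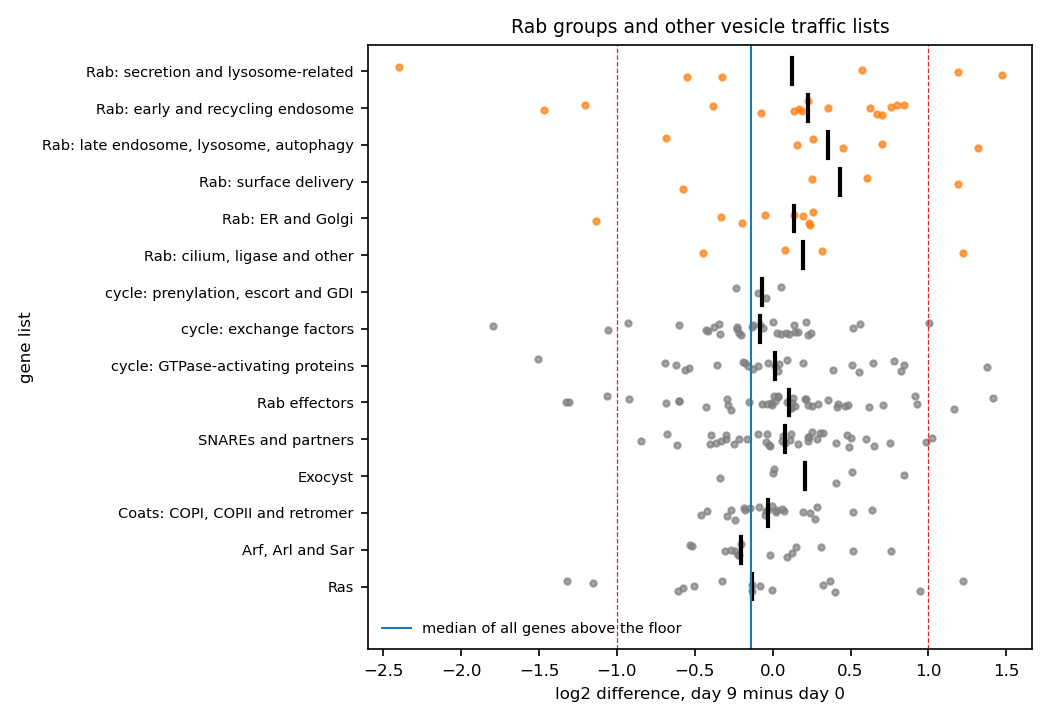
Day 9 minus day 0 on the log2 scale (horizontal axis) for the genes above the floor in each list (rows), with Rab groups in orange and other vesicle traffic and small GTPase lists in grey. Each point is a gene, black bars are list medians, the blue line is the median of all genes at -0.14 and red dashed lines are 2-fold. Rab32 is the leftmost point, at -2.40.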

How the data were processed

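The authors deposited 1 log2 value per probe set and array. Per the submitters' processing notes these come from RMA, a method that removes background, gives every array the same distribution and summarises probes. Its software and settings: not given in the sources used here. Base 2 was inferred from the range, 1.55 to 14.2. RMA removes much of any shift shared by most genes. RNA integrity numbers were 9.5 to 10, and 500 ng of total RNA was labelled near the 3' end, per the labels' protocols.

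Of 31099 probe sets, the platform annotation gives 20832 a single symbol, 436 several and 9831 none. Entrez identifiers of all 58 Rab genes were found in RefSeq's GRCr8 gene table, the source of the promoters. Differences between arrays were counted at 2-fold. There were 4 arrays, 1 per day, so no test was run, and the number of arrays limits the precision. The counting code was run on simulated shifts well above 2-fold with little noise, which checks the code and not the differences reported here. Members, lists, families, motifs and the rule for named genes (any Rab member, full values for those 2-fold apart, up to 3 members per other list and direction, partners of the named Rabs) were chosen with earlier results of these data known. Protein sequences were not used here, and 1 gene list is not reported here. Alternatives changed the floor, probe set choice, scaling and threshold. Versions were numpy 2.4.6, pandas 2.3.3, matplotlib 3.10.9 and Python 3.11.15.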

Additional observations from a re-analysis of the deposited data

How the results depend on the processing

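Of 222 recomputed values of Rab genes that were 2-fold or more apart from day 0, under the alternatives to the floor, probe set and scaling, 192 stayed at 2-fold or more, 30 fell short of it and 0 turned sign. Many of the 192 could not change, since another floor, GTPases alone or unmarked probe sets leave the value of such a gene as it was. Averaged probe sets gave 8 of the 30 and the second brightest probe set 7. Centring on the spike-ins gave 8, on the housekeeping list 4 and on the median gene 3. With no floor or a floor of 5, the number of Rab genes higher on day 3 than on day 0 was 2 and the number lower on day 6 than on day 3 was 1. With a floor of 8, 1 was lower on day 3. When all probe sets of a gene were averaged, 1, 2 and 1 were lower on days 3, 6 and 9, and Rab20, Rab30, Rab31 and Rab8b fell short of 2-fold on day 9, at -0.52, -0.83, -0.68 and 0.68. With the second brightest probe set, which passed the floor for 22 genes, 0 were higher on day 3, 0 were lower on days 3, 6 and 9, and 2 were higher on day 6 than on day 3. Rab32 has no second probe set. Centred on the median gene, 8 were higher and 2 lower on day 6, and 2 were higher on day 6 than on day 3. Centred on the housekeeping list, 1 was lower on day 3, 8 were higher and 2 lower on day 6, and 2 were higher on day 6 than on day 3. A further quantile normalization also gave 2 higher on day 6 than on day 3. Centred on the spike-ins, 1 was higher on day 6, 0 higher and 9 lower on day 9, and 1 lower on day 6 than on day 3, with a day 9 median of -0.43. At 1.5-fold, 6 were higher and 4 lower on day 3, 12 higher on day 6, 13 higher on day 9, 5 higher and 2 lower in day 6 against day 3, and 1 higher on day 9 than on day 6. At 3-fold, 0 were higher on days 3, 6 and 9 or on day 6 than on day 3, and 1, 2 and 1 were lower on days 3, 6 and 9. The other counts stayed within 1.5 times, and the other medians moved by less than the median gap between probe sets of a gene, also for GTPases alone, for unmarked probe sets and for a mean of 6 or more. Signal over background limits the 12 genes below the floor. The cause of these moves was not tested beyond what each alternative changes. No paired analysis was possible because each day has 1 array.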
